A study of Mus musculus with 24 samples.

Results

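Among the accessible sites that mouse embryonic stem cells lost when CTCF was degraded, 629 had a peak again in both libraries of cells overexpressing wild-type CTCF and in neither library of cells overexpressing a mutated CTCF. The members were selected on peak calls alone. A member is a peak of the first untreated control library (132912 peaks) that overlapped a peak of the second (111731 did) and no peak of the 2 degraded control libraries, which left 9843 CTCF-dependent sites. It then overlapped a peak in both wild-type CTCF libraries (3788 sites) and none in either mutated CTCF library (629 sites). An overlap of 1 bp was enough. The absence of a peak means that a site stayed under the threshold of that list, not that its accessibility was nil.

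The assay was ATAC-seq, which uses a transposase to tag DNA that is not covered by nucleosomes, and the cells were E14 mouse embryonic stem cells. Their CTCF carried an auxin-inducible degron (AID), so that adding the auxin IAA leads to its degradation. The 24 libraries formed 12 groups of 2. The labels do not say whether the 2 libraries of a group came from separate cultures, so the spread between them may be technical.

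The groups that enter the rule are the control line (CTCF AID, overexpressed control), untreated or given IAA for 12 h, and the lines overexpressing wild type CTCF or mutated CTCF after 12 h of IAA. The groups outside the rule were cells whose genotype is given as CTCF AID alone. They comprised a Chd4 set and a Chd8 set, each without IAA and with the hairpins shluci, shRNA1 and shRNA2, and a serum set at 0 h and 12 h of IAA. The labels do not say what the mutation changes, whether the overexpressing lines were clones, or how much of either protein was made. The growth protocol names serum-free medium for all libraries, whereas the labels of the 4 serum libraries give serum.

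CTCF binds DNA through a row of zinc fingers and holds nucleosomes away from its site, which leaves a short accessible stretch. Together with cohesin it forms the anchors of chromatin loops and the borders of topological domains. Its core motif is not palindromic and tolerates changes at several positions, so a site has an orientation and a graded fit.

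The sequences of some of the strongest members with the 14-base CTCF consensus (searched on both strands within 250 bp of the summit, at most 1 mismatch) are printed first, because they show how near to the consensus a site restored by wild-type CTCF only can be. The sequences come from the RefSeq GRCm38.p6 genome and are written 5′ to 3′ on the strand of the match. Capitals mark the match and lower case the 10 bases on each side. The first member lies near Pdcd1, the gene of the immune checkpoint receptor PD-1, with the match at chr1:94079309-94079322 on the minus strand.
Pdcd1: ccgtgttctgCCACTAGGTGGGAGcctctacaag
The next lies near Psma1, the gene of a proteasome core subunit (chr7:114281847-114281860, minus strand).
Psma1: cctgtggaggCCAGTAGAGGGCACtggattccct
The third is an intergenic site whose nearest start is that of the transcript Gm43574 (chr3:148004175-148004188, minus strand).
Gm43574: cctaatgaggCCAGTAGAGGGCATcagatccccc
The fourth is intergenic, 21291 bp from the start of the pseudogene Gm12281 (chr11:62675962-62675975, minus strand).
Gm12281: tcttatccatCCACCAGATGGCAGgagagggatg
The fifth is in an annotated exon of Spi1, the gene of the blood-lineage transcription factor PU.1. It is named, as the other printed sites are, after its nearest start, 2852 bp away. That start belongs to Mybpc3, the gene of cardiac myosin-binding protein C (chr2:91115256-91115269, plus strand).
Mybpc3: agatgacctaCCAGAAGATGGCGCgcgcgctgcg
The sixth lies near Ywhah, which encodes a 14-3-3 adaptor protein (chr5:33033426-33033439, minus strand).
Ywhah: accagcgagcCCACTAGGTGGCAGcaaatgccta
The last, chosen for its peaks in the serum libraries as well as its strength, lies near Ptp4a3, which encodes a protein tyrosine phosphatase (chr15:73716516-73716529, minus strand).
Ptp4a3: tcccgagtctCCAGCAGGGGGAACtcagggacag

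Positions in the match are counted from 1 at its 5′ end, and a mismatch is given as the consensus letter, the position and the base found (Y stands for C or T, S for C or G). The matches near Psma1, Gm12281 and Ywhah had no mismatch. The others had 1 each: C12G near Pdcd1, S14T near Gm43574, Y5A near Mybpc3 and C12A near Ptp4a3. A match describes the letters and is not a measured binding site.

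For comparison, the next 2 sites in strength below the strongest site restored by both lines carried 1 mismatch, C1T near Olfr650-ps1 (chr7:104199990-104200003, plus strand) and Y5A near Gm13506 (chr2:39373315-39373328, minus strand).
Olfr650-ps1: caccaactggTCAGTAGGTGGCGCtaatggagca
Gm13506: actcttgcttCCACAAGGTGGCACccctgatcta
The strongest site restored by both lines that had the consensus, near Gm26027, had no peak in any of the 16 libraries outside the rule.

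The 8 lists that enter the rule held 120137 to 155087 peaks, the Chd4 lists 80619 to 141742, the Chd8 lists 135410 to 166697 and the serum lists 59786 to 82502. The total read count per library is not in the lists. Among the 8 lists, 5 had a strongest peak with a −log10 q of 1734 to 1958, while the strongest peak of the first IAA control, the second wild-type and the second mutated library reached 443 to 476, so each IAA group held 1 list of each kind. Peaks on coding exons of Ctcf away from its starts numbered 0 in all 4 control line lists, 3 and 2 in the wild-type lists and 2 and 2 in the mutated lists. The promoters of 8 stem cell marker genes, among them Nanog, Sox2 and Esrrb, had a peak in all 8 lists except that of Pou5f1, which had one in 7. The promoters of Afp, Alb and Col1a1, genes of endoderm, liver and fibroblasts, had none in these 8 lists, but most other lineage marker promoters were also open.

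The members were 1 of 9 possible outcomes. Of the 9843 dependent sites, 1862 had a peak in all 4 overexpression lists, 1500 in none and 238 in both mutated but neither wild-type list. The members outnumbered this mirror class, but the counts are a description, since the peak calls defined them. A further 1297 sites had a peak in both wild-type lists and in exactly 1 mutated list, 894 of them in the first mutated library and 403 in the second. Over all 132912 control peaks, 7.41% met the criterion of CTCF dependence and 1.56% were in both wild-type and neither mutated list, both used by the rule.

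**Figure D1:**
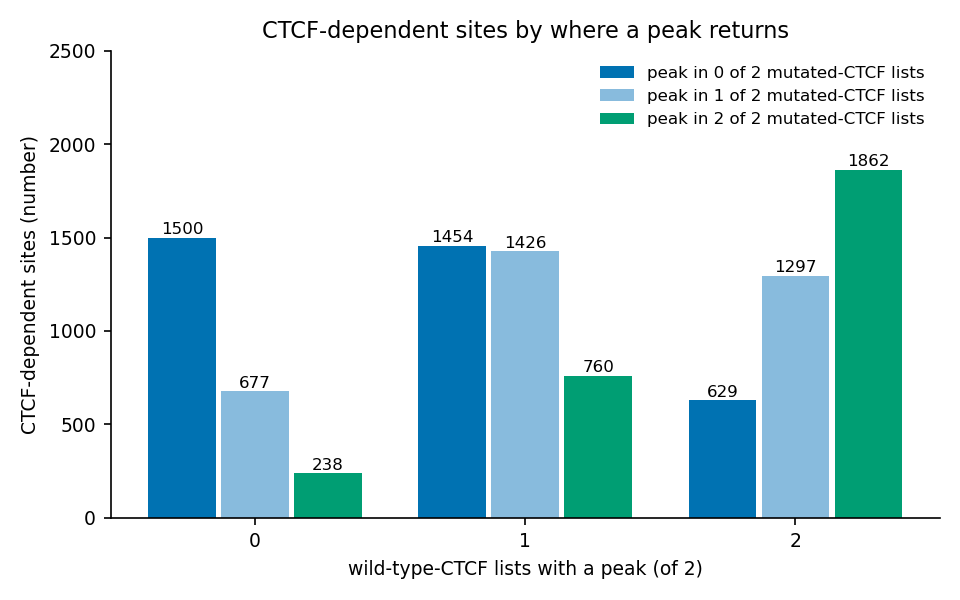
Number of CTCF-dependent sites (y axis) by the number of wild-type CTCF lists (x axis, 0 to 2) and mutated CTCF lists (colour) that hold a peak. The members are the 629 sites in both wild-type lists and in 0 mutated lists, fewer than the 1862 in all 4 lists and more than the 238 in the 2 mutated lists alone.

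The number of members depended on which libraries entered the rule. These counts come from the rule's own lists and are a description. Fewer lists leave fewer conditions to meet, so higher counts were fixed in advance. The exception is the first untreated control library, which also supplies the peaks that are counted. With 1 library per IAA group, a split chosen after seeing the data, and the 3 IAA lists whose strongest peak exceeded a −log10 q of 1000, 3189 sites were restored by wild-type CTCF only and 1747 by mutated CTCF only. With the 3 lists without such a peak the counts were 3524 and 2362. The wild-type list was the longer one in both splits, with 155087 against 146703 and 131432 against 130363 peaks. Leaving out 1 library from the rule gave 828 to 1699 sites. The highest counts came without the second wild-type library (1699) and without the first mutated library (1523). The counts were 1082 without the first untreated control library, 1013 without the first wild-type library and 1032 without the second mutated library.

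The members were weak to moderate peaks. The fold (the authors' ratio of the signal at a peak to its local background) had a median of 4.86 in the first and 4.85 in the second untreated control library, and of 4.77 and 4.30 in the wild-type libraries. By the rank of the deposited −log10 p, the median member stood at percentile 35.9 and 38.5 of the control lists and 31.5 and 28.5 of the wild-type lists. Sites restored by both lines stood higher, at 51.3, 52.1, 47.5 and 42.7, and sites restored by neither line lower, at 20.1 in the first control list. Members were also narrower, with a median width of 247 bp in the first control list against 326.5 bp for sites restored by both lines. These values come from lists that the rule used and are a description.

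**Figure D2:**
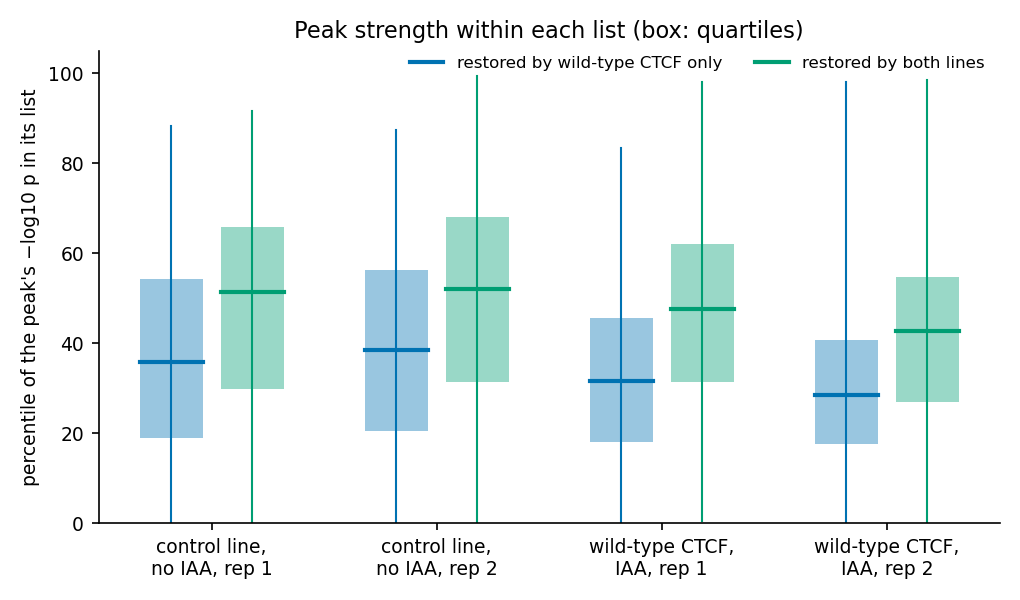
Percentile of −log10 p within each list (y axis) for the members (blue) and the sites restored by both lines (green) in the 4 libraries that hold both (x axis). Boxes span the quartiles, thick lines are medians and thin lines reach the lowest and highest site. The members' medians lie between 28.5 and 38.5 and those of the other class between 42.7 and 52.1.

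A −log10 q of at least 10 in all 4 lists was reached by 69 of the 629 members, and the median −log10 q in the second wild-type list was 6.09. When the control peak needed a value of at least 5, 470 sites were left. A value under 2 in at least 1 of the 4 lists was found for 32 members. A mutated-line peak lay within 250 bp of 20 members in the first and 22 in the second mutated library, with the shortest gaps at 10 and 1 bp and median gaps of 3252 and 3469 bp. Just outside the rule, the sites in both wild-type lists and in the first mutated list alone had a median −log10 q of 7.87 there, and those in the second mutated list alone one of 5.32.

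The strongest members show what the lists held site by site. The site near Gm12281 (chr11:62675569-62676052) had folds of 16.5 and 17.1 in the untreated control libraries and of 9.54 and 5.79 in the wild-type libraries, and the nearest mutated-line peaks were 5357 and 10670 bp away. The site near Psma1 (chr7:114281529-114282087) had folds of 10.6, 12.2, 8.90 and 8.68 in the same order, with mutated-line peaks no nearer than 802 bp. The site near Pdcd1 (chr1:94079208-94079367) had folds of 8.33, 10.7, 7.83 and 5.52. In these 3 sites the second wild-type library had the lowest fold of the 4, and folds of different libraries are not on one scale.

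The other sites named with a printed sequence had similar values. The site near Gm43574 had folds of 11.6, 13.2, 11.8 and 6.95. The site near Ptp4a3 had 10.1, 9.92, 6.89 and 7.36, that near Ywhah 8.23, 8.07, 7.71 and 6.94, and that near Mybpc3 7.62, 6.76, 5.78 and 4.93. The member near the pseudogene Gm5239 on chromosome 18 had the consensus and ranked just above that near Ptp4a3, and its sequence is not printed. Its folds were 9.73, 10.5, 11.8 and 7.23. The extent of overlap mattered for named sites. Of the 23 sites chosen by the naming rule, 11 fitted the criteria in all 8 lists when an overlap had to cover at least 50% of the control peak, and 19 did with lists of equal length. The members' peaks had a median width of 172 and 236 bp in the wild-type lists.

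The consensus was several times as frequent in members as in all control peaks. The consensus was found in 208 of 629 members (33.1%, 95% Wilson interval 29.5% to 36.8%), in 6.61% of all 132912 control peaks and in 1.27% of windows 2000 bp away from the members. Sites restored by both lines had it in 42.0% and sites restored by neither in 23.5%. The members' share was 8.93 points lower than the former (interval of the difference −13.1 to −4.55) and 9.60 points higher than the latter (5.41 to 13.9). Against sites restored by mutated CTCF only (21.8%) it was 11.2 points higher (4.52 to 17.3). Intervals treat sites as independent and cover counting error only.

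Within bands of equal peak strength the differences from the sites restored by both lines or by neither were not detectable. Between percentiles 25 and 50 of the control list, 33.2% of 220 members had the consensus, against 31.2% of 580 sites restored by both lines and 37.6% of 482 restored by neither. Between percentiles 50 and 75 the shares were 60.6%, 58.2% and 52.7%. Below percentile 25 they were 8.80%, 6.01% and 11.5%. The members' 95% intervals included the shares of both classes in these 3 bands, except that the interval in the band from 50 to 75, 53.2% to 67.5%, lay just above the 52.7% of sites restored by neither, whose own interval was 44.2% to 61.0%. Above percentile 75 there were 18 members, 55.6% of them with the consensus (33.7% to 75.4%), and 214 sites restored by both lines, at 67.3%. Sites restored by mutated CTCF only had 14.1% of 128, 20.9% of 91 and 78.9% of 19 sites in the 3 bands below percentile 75, from the weakest up. The bands were chosen after seeing the data.

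**Figure D3:**
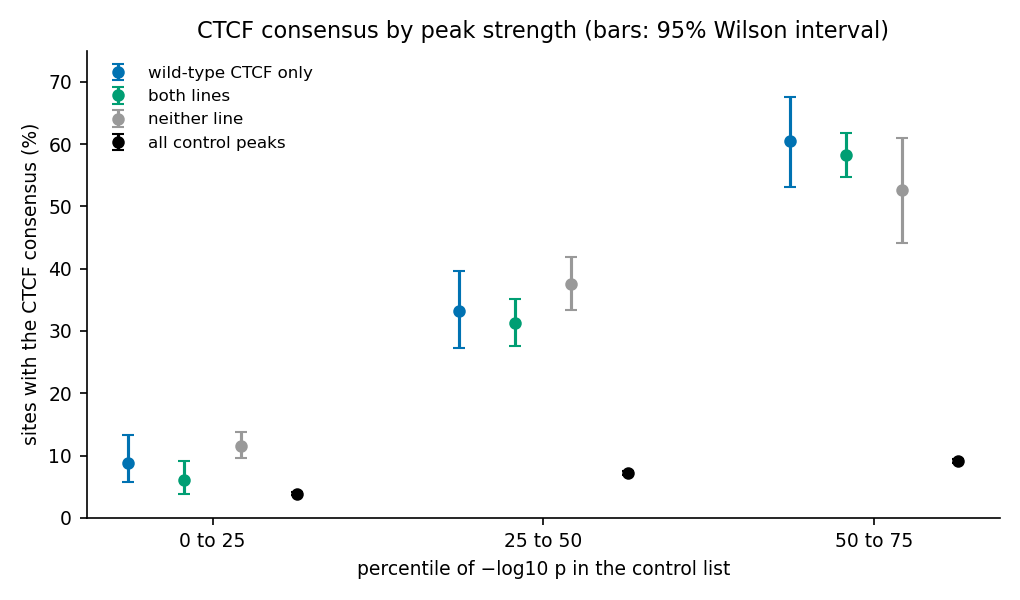
Share of sites with the CTCF consensus (y axis) in 3 bands of the control list's −log10 p percentile (x axis), with 95% Wilson intervals. In the band from 25 to 50 the members stand at 33.2% beside 31.2% for sites restored by both lines, 37.6% for those restored by neither and 7.18% for all control peaks, and sites restored by mutated CTCF only (20.9% in that band) are not drawn.

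The matches of the members lay where those of other dependent sites lay. The centre of the match was a median of 35 bp from the summit in members, as in sites restored by both lines, and in 78.8% of matches the centre was within 50 bp. No mismatch was present in 67 of the 208 matches (32.2%), against 33.9% in sites restored by both lines. Mismatches were most frequent at position 5 (35 of 208), position 12 (26) and position 1 (25), and positions 2 and 7 never differed.

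The share of matches with a CpG varied between the classes. A CpG dinucleotide, the substrate of DNA methylation, was present in 25% of the members' matches (interval 19.6% to 31.3%) and in 35.8% (32.5% to 39.2%) of those of sites restored by both lines, in 24.4% of those restored by neither and in 44.2% (31.6% to 57.7%) of the 52 of sites restored by mutated CTCF only. DNA methylation was not measured here.

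Some printed sequences resemble one another. The matches near Psma1 and Gm43574 share their first 13 bases, CCAGTAGAGGGCA, and the strongest member without the consensus, near the small nucleolar RNA Gm22900 (chr3:124496186-124496397), had a related match with 2 mismatches, Y5A and A6G (chr3:124496257-124496270, plus strand).
Gm22900: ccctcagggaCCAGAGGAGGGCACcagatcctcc
All 14 bases of the match near Gm43574 and near Psma1, and 12 of 14 near Gm22900, are soft-masked in the reference, which marks repeats and low-complexity sequence. The run GAGGGCANCAGA, searched on both strands after it was seen in the sequences near Gm43574 and Gm22900, occurred in 16 members (2.54%, interval 1.57% to 4.09%), in 1.56% of sites restored by both lines, 2.60% of those restored by neither and 0.501% of all control peaks. In mouse, B2 short interspersed repeats are known to carry CTCF motifs; repeat families were not annotated here.

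A wider view of these sites is given by a longer stretch around the summit, on the plus strand, with the match in capitals. The first is the site near Psma1 (chr7:114281754-114281954), where the match on the minus strand reads as its reverse complement.
Psma1 summit: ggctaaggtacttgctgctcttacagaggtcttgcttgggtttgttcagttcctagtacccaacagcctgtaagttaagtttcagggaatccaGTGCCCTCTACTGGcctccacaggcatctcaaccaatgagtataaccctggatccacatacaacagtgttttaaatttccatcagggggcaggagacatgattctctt
The second is the site near Tsr2, a ribosome biogenesis gene (chrX:151116880-151117080), which had no match with up to 2 mismatches and was shown because it was among the 4 strongest members without the consensus.
Tsr2 summit: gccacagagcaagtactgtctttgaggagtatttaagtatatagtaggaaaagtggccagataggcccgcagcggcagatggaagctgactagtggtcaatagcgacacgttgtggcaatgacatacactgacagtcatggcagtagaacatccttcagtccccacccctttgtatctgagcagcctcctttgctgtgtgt

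The 421 members without the consensus included sites as strong as those with it. The site near Gm22900 was the strongest of all members, with folds of 18.6, 18.5, 12.4 and 9.55. The other 3 strongest were in an intron of Gm47283 on chromosome Y (8.81, 8.08, 11.1 and 8.16), near Tsr2 (11.3, 12.6, 11.4 and 8.10) and in an intron of Ccdc138, nearest to a start of Gm18042 (10.1, 11.9, 9.22 and 9.26), whose best match had the 2 mismatches C12T and S14T. When up to 2 mismatches were allowed, 52.3% of members had a match, but so had 23.4% of all control peaks.

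Motifs of other factors were about as frequent in members as in all control peaks or less so. The letters were searched on both strands within 250 bp of the summit, and short motifs can overlap one another. The octamer ATGCAAAT of POU factors such as Oct4 was found in 4.13% of members and 4.44% of all control peaks, the Esrrb motif TCAAGGTCA in 1.91% and 2.69%, and the Klf motif GGGTGTGG in 4.13% and 8.56%. AP-1 (TGANTCA) gave 15.4% and 15.2%, Tead (GGAATGT) 10.0% and 9.11%, YY1 (AAGATGGC) 4.77% and 3.80%, the E-box CACGTG 7.63% and 9.34%, and the Nrf1 core GCGCATGC 0.795% and 1.78%. The G+C content within 250 bp of the summit averaged 47.5% in members and 50.6% in all control peaks.

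Members lay mostly away from gene starts. The summit of 24 members (3.82%, interval 2.58% to 5.61%) was within 500 bp of an annotated start, against 13.4% of all control peaks and 3.11% of sites restored by both lines. Introns held 303 members (48.2%, all control peaks 45.8%), intergenic sequence 269 (42.8%, all control peaks 34.3%) and exons 33 (5.25%, all control peaks 6.42%). The consensus was present in 40.1% of intergenic members (34.5% to 46.1%) and in 28.4% of intronic members (23.6% to 33.7%), whereas the corresponding shares in sites restored by both lines were 43.6% and 41.2%. The median distance to the nearest start was 13804 bp. Another CTCF-dependent site lay a median of 54855 bp away, and only 4 members had another member within 10 kb of them.

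Starts of protein-coding genes were within 500 bp of 13 members (2.07%), against 10.8% of all control peaks and 1.24% of sites restored by both lines. The strongest was 158 bp from a start of Tmcc2 (chr1:132367428-132368034), with folds of 6.32 and 7.03 in the control and 5.00 and 5.06 in the wild-type libraries. Then came Fhad1 (3.85, 4.68, 4.42 and 4.66), Fam81b (7.29, 4.79, 5.09 and 5.79) and Mroh3 (5.29, 6.58, 6.04 and 4.34). None of these 4 carried the consensus, and those at Fam81b and Mroh3 had a peak in both serum libraries at 0 h and in neither at 12 h.

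Each of the gene lists had 0 to 2 members near its genes, too few to be set apart from all control peaks. Within 50 kb of a start of 18 pluripotency genes there was 1 member, near Tfcp2l1, a transcription factor of the naive state (0.159% of members, 0.272% of all control peaks). The lists of 14 CTCF and cohesin genes and of 15 lineage regulators had none (all control peaks 0.108% and 0.141%). The list of 14 chromatin remodellers had 2, near Chd4 and Ino80 (0.318%, all control peaks 0.161%). That of 17 imprinted genes had 1 (0.159%, all control peaks 0.117%), in an intron of Igf2r 751 bp from a start of the noncoding RNA Airn, and that of 95 Hox and protocadherin genes had 1, near Hoxb13 (0.159%, all control peaks 0.166%). Of these, the site near Ino80 (chr2:119507084-119507381) had folds of 9.73 and 10.8 in the control libraries and of 4.13 and 3.47 in the wild-type libraries, and carried the consensus with Y5A. The site near Hoxb13 had 10.5, 13.2, 8.40 and 3.18 with C12G. The site near Chd4 had folds of 3.57, 3.83, 3.39 and 3.03 and no consensus. The sites near Ino80, Hoxb13, Chd4 and Tfcp2l1 are named after the listed gene and not after their nearest start. Those starts were of Gm14208 (1949 bp), Ttll6 (11600 bp), 2010008C14Rik (1205 bp) and Gm28882 (7588 bp), in that order. The site near Hoxb13 lay in an intron of Ttll6 and that near Tfcp2l1 in an intron of Tfcp2l1.

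The serum set provided libraries that the rule did not use. At 0 h of IAA a peak was present at 204 members (32.4%) in the first and 178 (28.3%) in the second library, and after 12 h at 54 (8.59%) and 68 (10.8%). Both 12 h values were under both 0 h values. The mean difference was −20.7 points with a pooled SD of 2.35 (n = 2 and 2, two-sided exact permutation p = 0.333, the smallest this design can give). Over all control peaks the share was higher at 12 h, by 5.02 points (pooled SD 3.26). The 12 h lists were also longer, with 71773 and 82502 peaks against 69153 and 59786 at 0 h.

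The sites restored by both lines had higher shares in serum and a similar ratio between the times. Their shares were 52.4% and 46.7% at 0 h and 13.6% and 17.0% at 12 h, a difference of −34.3 points. The difference of the members was smaller in size by 13.6 points (pooled SD 0.987, exact permutation p = 0.333), while the ratio of 0 h to 12 h was 3.13 in members and 3.24 in sites restored by both lines. That gap of 13.6 points fell to 2.87 without the first and to 0.341 without the second IAA control library in the rule. Against sites restored by neither line (22.5% and 16.5% at 0 h, 7.20% and 10.6% at 12 h) the members' difference was larger in size by 10.1 points (exact permutation p = 0.333). The members' serum shares also differed with peak strength. Below percentile 25 of the control list (216 members) they were 9.72% and 11.1% at 0 h and 8.80% and 14.4% at 12 h, so the times overlapped. Between percentiles 25 and 50 (220 members) they were 33.2% and 24.5% at 0 h and 10.0% and 12.3% at 12 h, and between 50 and 75 (175 members) 56.6% and 52.0% at 0 h and 6.86% and 5.14% at 12 h. Sites restored by both lines had 17.7% and 10.4%, 36.0% and 33.4%, and 69.7% and 62.0% at 0 h in these bands, and 14.2% and 17.1%, 16.2% and 20.5%, and 11.2% and 14.4% at 12 h. The part of strength in the result was not tested.

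The serum shares of members differed by the consensus. With it, 56.3% and 50.0% had a peak at 0 h and 6.25% and 4.33% at 12 h, a difference of −47.8 points. Without it, the shares were 20.7% and 17.6% at 0 h and 9.74% and 14.01% at 12 h, a difference of −7.24 points. The 2 differences were 40.6 points apart (pooled SD 3.48, exact permutation p = 0.333, n = 2 and 2). The split by consensus is also a split by strength, since the consensus was in 8.80% of members below percentile 25 and in 60.6% between percentiles 50 and 75. Within bands of strength, chosen after seeing the data, the gap between the times was also larger with the consensus. Between percentiles 25 and 50, the 73 members with the consensus had 54.8% and 42.5% at 0 h and 8.22% in both libraries at 12 h, and the 147 without it 22.4% and 15.6% at 0 h and 10.9% and 14.3% at 12 h. Between percentiles 50 and 75, the 106 with it had 61.3% and 54.7% at 0 h and 2.83% and 0% at 12 h, and the 69 without it 49.3% and 47.8% at 0 h and 13.04% in both at 12 h. Below percentile 25 only 19 members had it.

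Counted site by site, 94 members (14.9%) had a peak in both 0 h lists and in neither 12 h list, against 2.07% of all control peaks and 26.2% of sites restored by both lines. These were 77.7% of the 121 members that both 0 h lists held (interval 69.5% to 84.2%), and the same ratio was 66.7% in sites restored by both lines, 67.97% (104 of 153) in those restored by neither, 59.3% (16 of 27) in those restored by mutated CTCF only and 6.50% over all control peaks. The opposite pattern, a peak only after 12 h in both libraries, was found at 11 members (1.75%, all control peaks 3.37%). The sites near Psma1, Gm43574, Gm12281, Gm5239 and Ptp4a3 had the first pattern, for which they were chosen. Of the sites named for other reasons, those near Gm22900, Tsr2, Fam81b, Mroh3, Ino80 and Hoxb13 had it too. Those near Ywhah, Gm47283, Gm18042, Tmcc2, Fhad1, Airn, Chd4 and Tfcp2l1 did not. The site near Mybpc3 had a peak in all 4 serum libraries, and the site near Pdcd1 in 1 at 0 h and none at 12 h.

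**Figure D4:**
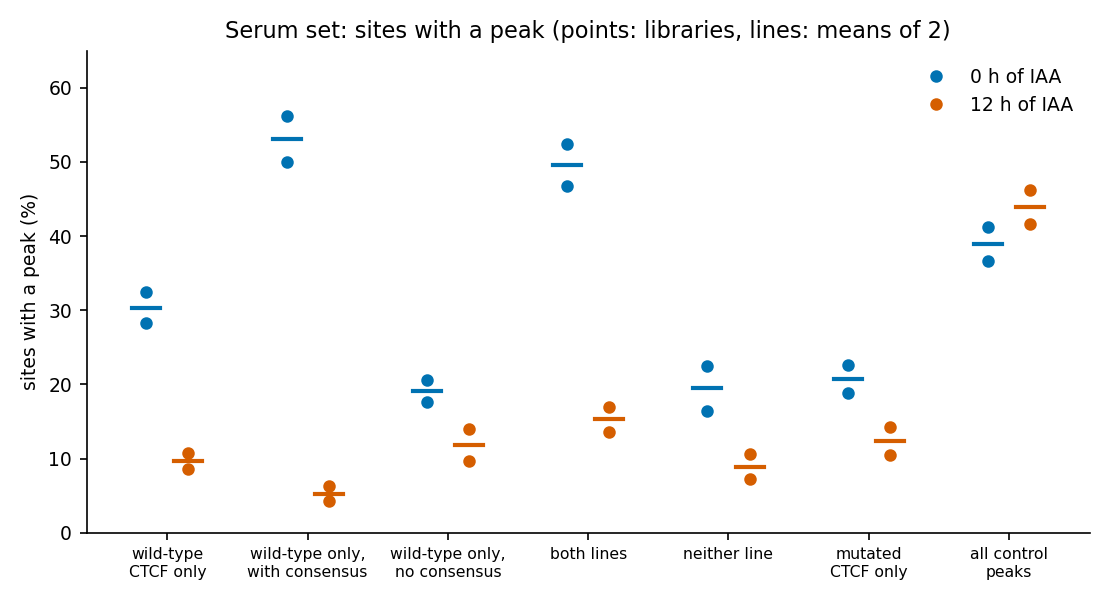
Share of sites with a peak (y axis) in the 4 serum libraries by class of site (x axis); points are libraries and short lines the means of 2. Members with the consensus go from 56.3% and 50.0% at 0 h to 6.25% and 4.33% at 12 h of IAA, while all control peaks go from 41.2% and 36.6% to 41.6% and 46.2%.

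Knockdown of Chd4, the ATPase of the NuRD complex, came with a difference in members smaller than the spread between libraries, which was mostly between the first and second libraries. A peak was present at 28.0% and 18.1% of members with shluci, 21.5% and 13.2% with shRNA1 and 24.5% and 14.9% with shRNA2. In each hairpin the first library was higher, and the 3 groups overlapped. Within each replicate number both shRNA libraries were under the shluci library. The first libraries had 135583 to 141742 peaks and the second 80619 to 93091. The shRNAs differed from shluci by −4.53 points (pooled SD 5.79, n = 4 and 2, two-sided exact permutation p = 0.4, smallest possible 0.0667), by 0.397 points without the first shluci library, and by −3.46 points with the Chd4 lists cut to equal length (exact permutation p = 0.133). In members with the consensus the difference was −9.01 points (pooled SD 9.39, exact permutation p = 0.333). In members without it, it was −2.32 points (exact permutation p = 0.533). Over all control peaks the difference was −10.0 points (exact permutation p = 0.0667). The pattern of a peak in both shluci and no shRNA list was found at 15 members (2.38%, all control peaks 3.26%), and the opposite at 2 (0.318%, all control peaks 0.536%).

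Knockdown of Chd8, a remodeller of the chromodomain helicase family known to bind CTCF, gave a difference of similar size with less spread. Shares were 34.2% and 38.6% with shluci, 35.1% and 32.1% with shRNA1 and 30.8% and 29.7% with shRNA2. Both shRNA2 libraries were under both shluci libraries, and shRNA1 overlapped with shluci. The difference was −4.45 points (pooled SD 2.56, exact permutation p = 0.2), −3.14 points with the Chd8 lists cut to equal length (exact permutation p = 0.0667, the smallest possible) and −2.23 points without the second shluci library (exact permutation p = 0.6). In members with the consensus the shares were 58.7% and 61.1% with shluci, 55.8% and 51.9% with shRNA1 and 48.1% and 45.2% with shRNA2. There all 4 shRNA libraries were under both shluci libraries, with a difference of −9.62 points (pooled SD 4.08, exact permutation p = 0.133). In members without the consensus the difference was −1.90 points (exact permutation p = 0.667). Their mean share with shluci was 24.8%, against 59.9% in members with it, and the 2 differences were not tested against each other. In the Chd4 set the corresponding differences were −9.01 points with the consensus and −2.32 without it. Over all control peaks the Chd8 difference was −1.68 points (exact permutation p = 0.6). The other dependent classes had −2.95 points (restored by both lines), −3.77 (by neither) and −3.78 (by mutated CTCF only). The members' difference minus that of sites restored by both lines was −1.498 points (exact permutation p = 0.6), so it was not shown to be particular to them. The pattern of a peak in both shluci and no shRNA list was found at 9 members (1.43%, all control peaks 0.892%), and the opposite at 1 (0.159%, all control peaks 0.448%). The knockdown itself cannot be read from accessibility and was not checked.

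**Figure D5:**
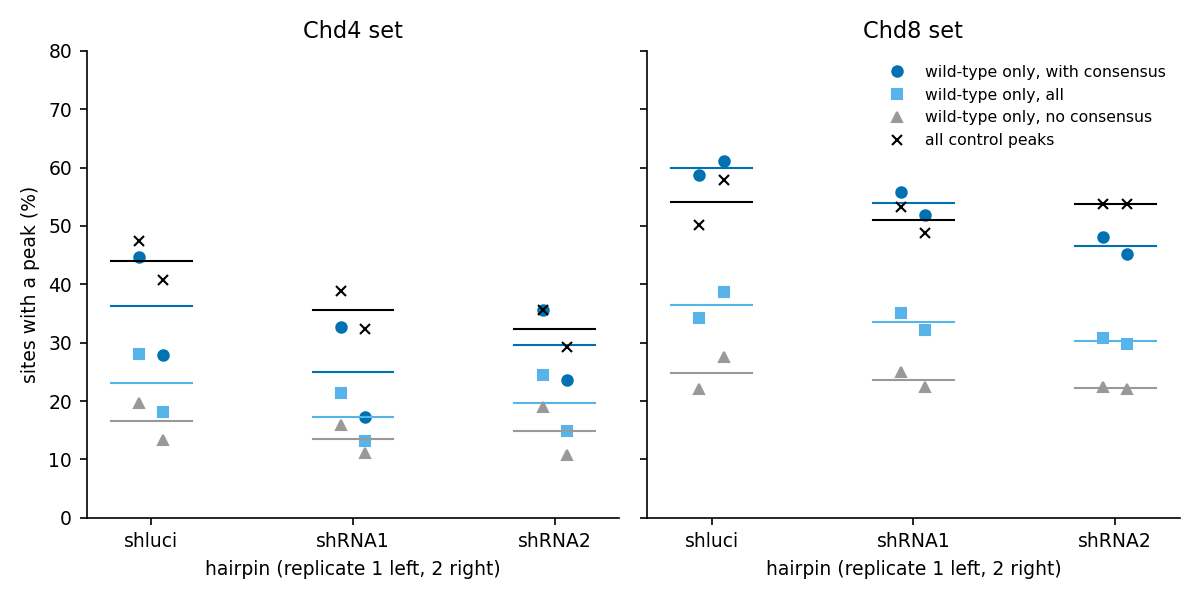
Share of sites with a peak (y axis) in each library of the Chd4 set (left) and Chd8 set (right) by hairpin (x axis); lines are means of 2 libraries. In the Chd8 set the members with the consensus stand at 58.7% and 61.1% with shluci and at 45.2% to 55.8% with the shRNAs, and in the Chd4 set the first library of each hairpin lies above the second.

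Over the 14 libraries outside the rule in which CTCF was not degraded, members were seen irregularly. The median member was in 3 lists. No such list held 148 members (23.5%), and 368 were in 1 to 7 lists (58.5%, all control peaks 45.9%). In 8 or more lists there were 113 (17.97%, all control peaks 40.3%), of which 6 were in all 14 (0.954%, all control peaks 9.45%). Members with the consensus were in a median of 6 lists (quartiles 3.75 and 9) and 4.33% were in none. Members without it were in a median of 1 list (0 and 4) and 33.0% were in none, against 13.8% of all control peaks. Sites restored by both lines were in a median of 6 lists and 10.0% were in none. Those restored by neither line were in a median of 1 list, with 32.7% in none. Those restored by mutated CTCF only were in a median of 3 lists, as the members were, with 19.3% in none.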

How the data were processed

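The deposited peak lists of 24 ATAC-seq libraries were used. Per the submitters' processing notes, Trim Galore, Bowtie2, MACS2 and deepTools were used with build mm10; versions, roles and parameters are not given in the sources used here. The authors deposited 1 list per library, with the fold of each peak (a ratio) and its −log10 p and −log10 q; no list is labelled as pooled. These values were used only within a list. No peak of 2958411 lay beyond the GRCm38 chromosome ends, and at most 0.224% of intervals were identical between replicates. Read depth is unknown.

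The members and lists were chosen with earlier results of these data known. Named sites were ranked by the mean percentile of −log10 p in the 4 lists that hold them: the 8 strongest with the consensus, the 5 strongest with it that had a peak in both serum libraries at 0 h and in neither at 12 h, the 4 strongest without it, the 5 strongest within 500 bp of a protein-coding start, and up to 6 near listed genes. Of these sites, 2 are not reported here. Groups came from the sample labels. Gene starts (77200) came from the GENCODE vM21 basic annotation. A site was named after its nearest start, except that sites found through the gene lists were named after the listed gene. Shares were compared over libraries by two-sided exact permutation tests (Python 3.11.15, numpy 2.4.6, scipy 1.17.1). Scripts were tested on simulated data.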

Additional observations from a re-analysis of the deposited data

How the results depend on the processing

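The alternatives were shorter or stricter lists, other overlap rules and each library left out in turn. The 629 sites became 470 to 586 under 4 other rules, and 828 to 1699 without 1 library. A rise without a library was fixed in advance, except for the first untreated control library, because a condition is removed. Control peaks of −log10 q of at least 5, or no peak within 250 bp as absence, could only lower the count. With 1 library per IAA group, added after seeing the data, there were 3189 and 3524 sites, 23.5% and 20.4% of them with the consensus. The share with the consensus (33.1%) was 40.6% with lists of equal length, 41.7% with control peaks of −log10 q of at least 5, 22.5% to 31.9% without 1 library, 10.7% without mismatch, 52.3% with 2 mismatches, 24.5% with the whole match within 50 bp of the summit and 23.7% with ambiguous letters as N. The promoter share (3.82%) was 5.88% within 1000 bp, 2.07% for protein-coding starts and 2.94% to 3.94% without 1 library. The serum difference (−20.7 points) stayed negative, at −22.7 to −12.0 without 1 library. The comparison with sites restored by both lines (13.6 points) ranged from 0.341 to 16.2 without 1 library and was −10.1 with sites restored by neither line as the second class. The Chd4 difference ranged from −9.46 to 0.397 without 1 library and the Chd8 difference from −6.68 to −2.23. Apart from the directions fixed in advance, the cause of these shifts was not tested.

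With a replicate block the serum difference was −20.7 points and the comparison with sites restored by both lines 13.6 points (exact permutation p = 0.5 each), the Chd4 difference −4.53 (exact permutation p = 0.111) and the Chd8 difference −4.45 (exact permutation p = 0.333). With the block the smallest possible p is 0.5 in serum and 0.111 in the Chd sets. Only 2 numbers are shared, so the numbers are not shown to pair the libraries. These designs cannot pass 0.05 with or without the block, so their p-values say nothing about stability, and peaks below a list's threshold limit every count.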
